A study of Mus musculus with 8 samples.

Results

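The striatal projection neurons of the direct pathway were followed through 8 genes that mark them, Drd1, Tac1, Pdyn, Isl1, Chrm4, Slc35d3, Ebf1 and Eya1, chosen by symbol from the 55032 genes of the deposited RNAseq table. All 8 were found once in the table and all 8 had enough counts to be tested. Striatum was taken at postnatal day 60 from 4 WT mice and 4 16p11.2+/- mice, all female and of the C57BL/6 strain, and each mouse gave 1 library of total RNA. The 16p11.2+/- line came from the Jackson Laboratory, carries a heterozygous deletion in every cell of the body and was kept on the B6/C57 background, and the labels name no agent for either group. Mice are called by their labels, with WT and DF (16p11.2+/-) before the number. The total count per library was 15125051 to 16387993 in WT and 15240680 to 16523429 in 16p11.2+/- mice. The question asked of these libraries was whether the RNA of direct pathway genes differed between the genotypes.

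Medium spiny neurons are the GABAergic projection neurons that make up most of the striatum. Those of the direct pathway project to the substantia nigra and the internal pallidum, express the D1 dopamine receptor, which raises cAMP through the G protein subunit made from Gnal, and release the peptides substance P and dynorphin. Those of the indirect pathway express the D2 dopamine receptor and enkephalin. Of the 8 genes, Drd1 and Chrm4 encode receptors, Slc35d3 a membrane protein that helps the D1 receptor reach the cell surface, Tac1 and Pdyn peptide precursors, and Isl1, Ebf1 and Eya1 regulators of transcription.

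The genotype labels were examined on 9 genes of the deleted interval, chosen after the data were seen. In 16p11.2+/- mice their mean FPKM (fragments per kilobase of gene, scaled to the total count) was 41.4% to 52.8% of the WT mean, and for 8 of the 9 every 16p11.2+/- mouse lay below every WT mouse. Of these, 7 passed the edgeR test described below. Aldoa, a glycolytic enzyme and the most abundant, was at 289 to 309 in WT and 145 to 160 in 16p11.2+/- mice. For Doc2a the groups overlapped. The tissue label was examined on genes shared by both kinds of medium spiny neuron (8 genes, among them Ppp1r1b, Rgs9, Bcl11b, Foxp1 and Meis2), which were detected in all 8 libraries. Their median level, as a percentage of the mean FPKM of the WT mice, was 114.5%, 87.3%, 126% and 74.2% in mice WT-1015, WT-1041, WT-1061 and WT-1063. It was 112% and 107% in mice DF-1018 and DF-1059, but 33.4% in mouse DF-1037 and 25.6% in mouse DF-1062. Ppp1r1b, the gene of DARPP-32 and the most abundant of the list, had an FPKM of 83.5 in mouse DF-1037 and 47.5 in mouse DF-1062, against 220 to 359 in the other 6 mice. These 2 libraries stood apart from the rest of their group on genes of the tissue itself. In bulk tissue, fewer cells of a type and less RNA per cell cannot be told apart.

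Markers of neighbouring tissue moved across the same libraries. The summed FPKM of 7 thalamic neuron markers was 17.7 to 28.2 in mice WT-1015, WT-1041 and WT-1061 and 23.3 in mouse DF-1059. It was 216 in mouse WT-1063 and 122, 218 and 138 in mice DF-1018, DF-1037 and DF-1062, and all 7 markers were above 0 in every library. Prkcd, the most abundant of them, reached an FPKM of 82.0 in mouse DF-1037 and 70.4 in mouse WT-1063. The summed FPKM of 7 cortical glutamatergic neuron markers was 98.1, 119, 49.3 and 27.7 in the WT mice, in the order above, and 15.5, 165, 45.6 and 17.4 in mice DF-1018, DF-1037, DF-1059 and DF-1062, so that of the libraries low in shared genes 1 was the highest and the other the second from lowest. Slc17a7, the most abundant, had an FPKM of 106 in mouse DF-1037 and 7.83 in mouse DF-1062, and Emx1 had no count in mouse DF-1018. Besides the 2 libraries with few medium spiny neuron transcripts, thalamic markers were high in mouse WT-1063, where the shared genes were lowest among the WT mice at 74.2%, and in mouse DF-1018, where they were at 112%. Choroid plexus markers summed to 4370 in mouse WT-1063, nearly all of it Ttr, and to 7.19 to 472 in the other mice. Kcnj13 had no count in mouse WT-1041 and mouse DF-1018. The part of these tissues in the results below was not tested.

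**Figure D1:**
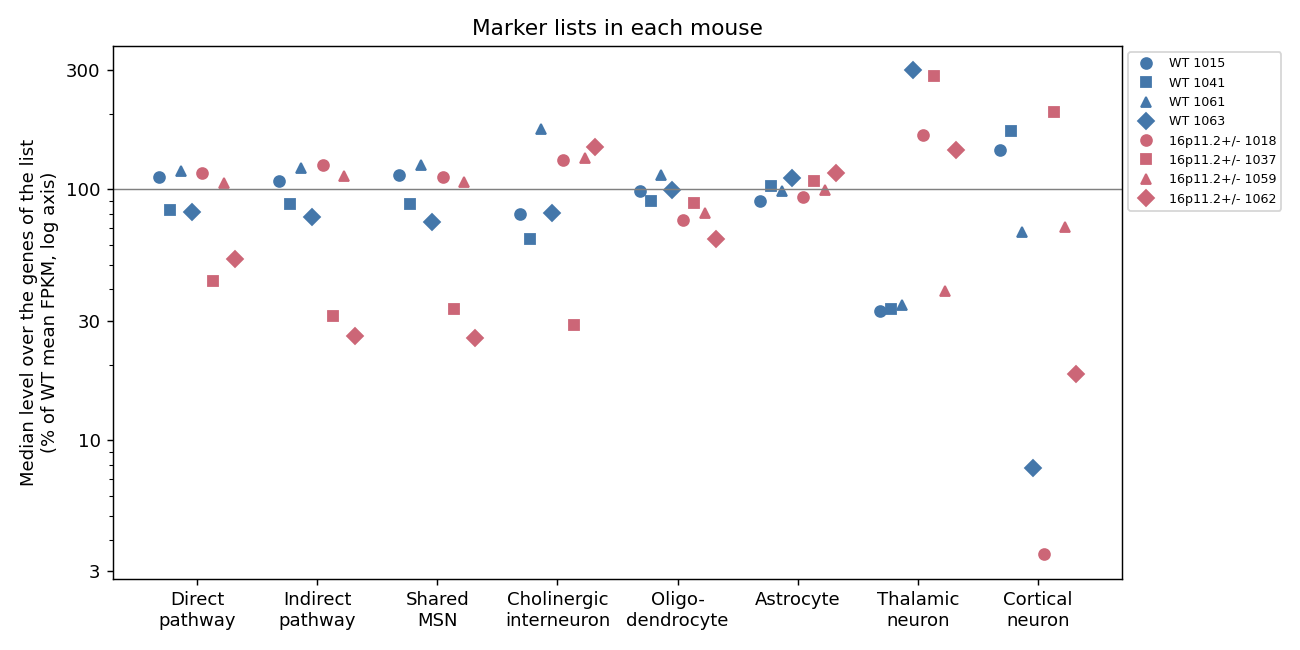
Median level of the genes of each marker list in each mouse, as a percentage of the mean WT FPKM (vertical log axis), for 8 lists (horizontal axis); MSN stands for medium spiny neuron, blue for WT and red for 16p11.2+/-. Mice DF-1037 and DF-1062 lay at 33.4% and 25.6% for shared medium spiny neuron genes, while the other 6 mice lay between 74.2% and 126%.

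Between the genotypes, none of the 8 direct pathway genes passed the test. The edgeR quasi-likelihood test, adjusted over all 18294 genes tested, called 0 of the 8 at a threshold of 0.05, where it called 0.109% of all genes. At an unadjusted p under 0.05 there were also 0 of 8, against 4.32% of all genes, and DESeq2 and limma-voom likewise gave 0 of 8 both before and after adjustment. The FPKM ranges of the groups overlapped for all 8 genes, whereas they did not overlap for 2.83% of all genes. The log2 fold change was negative for 6 of the 8 genes, against 51.8% of all genes, and its median was -0.36, against -0.01 over all genes. Without mice DF-1037 and DF-1062, which was examined after the data were seen, it was negative for 2 of the 8 genes and the median was 0.16.

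**Figure D2:**
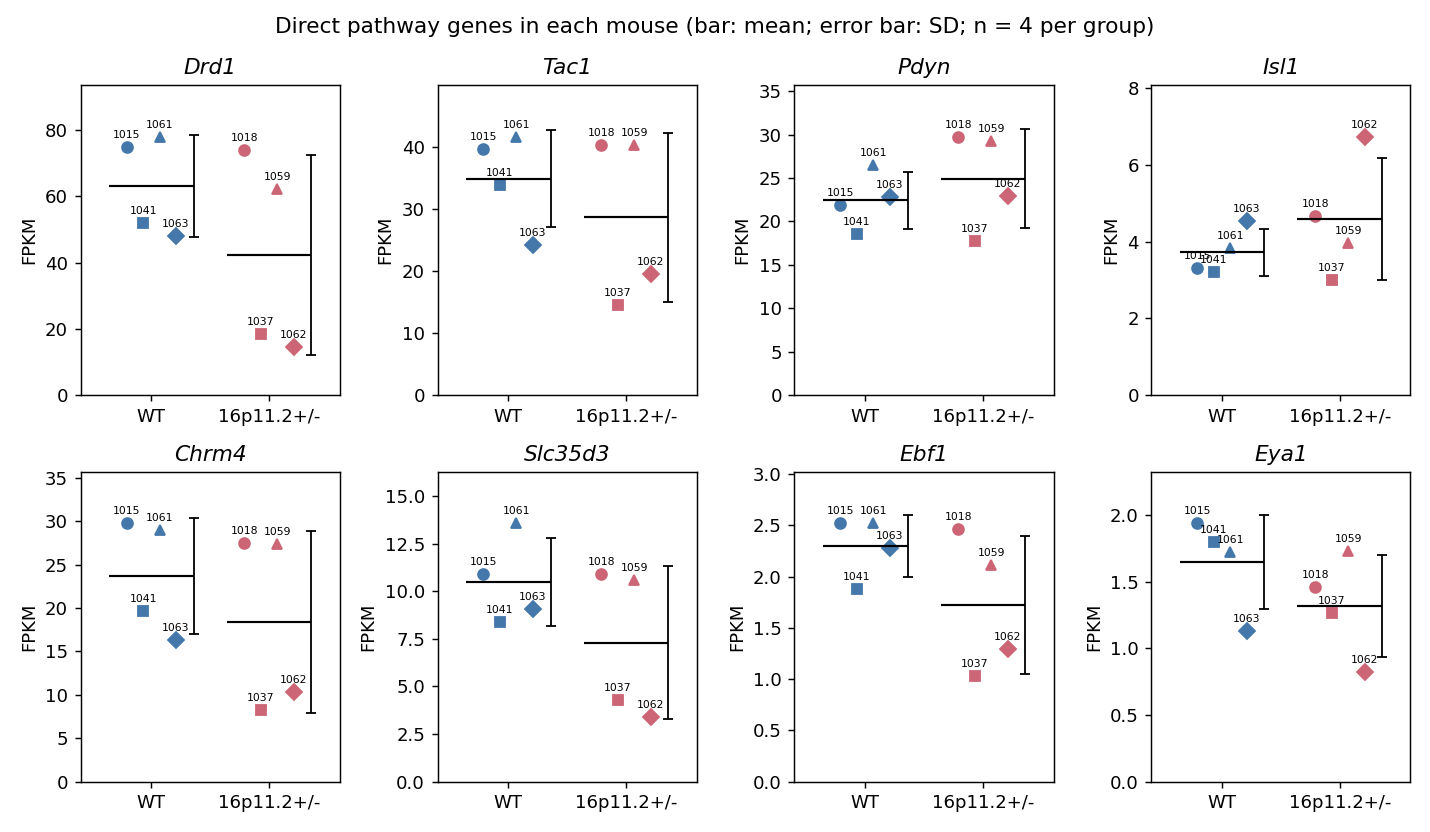
FPKM (vertical axes, from 0) of the 8 direct pathway genes in each WT mouse (blue) and each 16p11.2+/- mouse (red), with the mouse number beside each point, the group mean as a line and the SD as an error bar. For Drd1, Tac1, Chrm4, Slc35d3 and Ebf1, mice DF-1037 and DF-1062 lie below every WT mouse while mice DF-1018 and DF-1059 lie within the WT range.

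Drd1 (ENSMUSG00000021478) encodes the D1 dopamine receptor and lies on the reverse strand of chromosome 13 from 54051183 to 54055705 (GENCODE M21, GRCm38). Its FPKM was 74.8, 52.1, 78.1 and 47.9 in mice WT-1015, WT-1041, WT-1061 and WT-1063. In mice DF-1018, DF-1037, DF-1059 and DF-1062 it was 73.9, 18.3, 62.3 and 14.6. Mice DF-1018 and DF-1059 lay within the WT range, and mice DF-1037 and DF-1062 far below it, at 28.9% and 23.1% of the WT mean. The group means were 63.2 ± 15.4 (SD, n = 4) and 42.3 ± 30.2 (SD, n = 4), so that the spread among 16p11.2+/- mice was larger than the difference (p = 0.286, exact two-sided permutation test). On the log2 scale the fold change was -0.58 (95% interval from -1.76 to 0.59, edgeR adjusted p = 0.859), and -0.91 by limma-voom, which did not pass either. Without mice DF-1037 and DF-1062 it was 0.11 (95% interval from -0.42 to 0.65).

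Chrm4 (ENSMUSG00000040495) encodes the muscarinic M4 receptor, through which acetylcholine opposes D1 receptor signalling. The annotation gives it 1440 exon bases, on chromosome 2 from 91927249 to 91928688. Its FPKM in the WT mice, in the same order, was 29.8, 19.6, 29.0 and 16.3, and in the 16p11.2+/- mice 27.5, 8.24, 27.3 and 10.3. The pattern across the libraries was that of Drd1, with mice DF-1037 and DF-1062 below every WT mouse and the other 2 within the WT range. For Chrm4 the log2 fold change was -0.38 (95% interval from -1.34 to 0.58, edgeR adjusted p = 0.874), and 0.22 without mice DF-1037 and DF-1062 (95% interval from -0.38 to 0.82).

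Slc35d3 (ENSMUSG00000050473) lies on chromosome 10 from 19847916 to 19851459. Its FPKM was 10.9, 8.39, 13.6 and 9.08 in the WT mice. It was 10.9, 4.31, 10.6 and 3.41 in the 16p11.2+/- mice, the last being 32.5% of the WT mean. Again mice DF-1037 and DF-1062 were the only ones outside the WT range. Its log2 fold change was -0.53 (95% interval from -1.42 to 0.36, edgeR adjusted p = 0.859), and 0.043 without these mice (95% interval from -0.43 to 0.51).

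Tac1 (ENSMUSG00000061762), on chromosome 6 from 7554879 to 7565834, encodes the precursor of substance P and neurokinin A. Its FPKM was 39.6, 33.9, 41.6 and 24.2 in the WT mice and 40.3, 14.5, 40.3 and 19.4 in the 16p11.2+/- mice. Mice DF-1037 and DF-1062 were below every WT mouse here too, but at 41.6% and 55.8% of the WT mean they were nearer to it than for Drd1. On average the log2 fold change was -0.29 (95% interval from -1.09 to 0.50, edgeR adjusted p = 0.877), and 0.22 without these mice (95% interval from -0.28 to 0.71). With the thalamic marker score as a covariate, the direction turned and the value was 0.023 (95% interval from -0.69 to 0.73). In that fit the log2 fold change was -0.31 for Drd1, -0.05 for Chrm4, -0.33 for Slc35d3, -0.33 for Ebf1, -0.06 for Eya1, 0.21 for Pdyn and 0.19 for Isl1, and the median of the 8 was -0.06. With the cortical marker score instead, Isl1 had 0.10, Pdyn 0.06, Eya1 -0.22 and Drd1 -0.71, and 0 of the 8 passed in either fit.

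Pdyn (ENSMUSG00000027400), on the reverse strand of chromosome 2 from 129686565 to 129699844, encodes prodynorphin, from which dynorphins are cut. Its FPKM was 21.9, 18.6, 26.5 and 22.8 in the WT mice and 29.8, 17.8, 29.2 and 23.0 in the 16p11.2+/- mice. Mouse DF-1062, with the lowest Drd1 of all, had a Pdyn level within the WT range, mouse DF-1037 lay just below it, and mice DF-1018 and DF-1059 lay above it. The group means were 22.4 ± 3.26 (SD, n = 4) and 24.9 ± 5.70 (SD, n = 4), with an exact permutation p of 0.486. This gave a log2 fold change of 0.13 (95% interval from -0.28 to 0.55, edgeR adjusted p = 0.891). Without mice DF-1037 and DF-1062 it was 0.40 (95% interval from 0.08 to 0.72), with an edgeR p of 0.0216 unadjusted and 0.995 adjusted over all genes.

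The ratio of Drd1 to Pdyn within a library, chosen after the values were seen, was 3.42, 2.80, 2.94 and 2.11 in the WT mice and 2.48, 1.03, 2.13 and 0.637 in the 16p11.2+/- mice. It was lowest in mice DF-1037 and DF-1062, and the groups overlapped. The mean ratio was 2.82 ± 0.541 (SD, n = 4) for WT and 1.57 ± 0.877 (SD, n = 4) for 16p11.2+/-. An exact permutation test on the log2 ratio gave p = 0.0857, or 0.343 when adjusted over the 4 ratios chosen in this way. The smallest p that 4 mice against 4 can give is 0.0286.

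**Figure D3:**
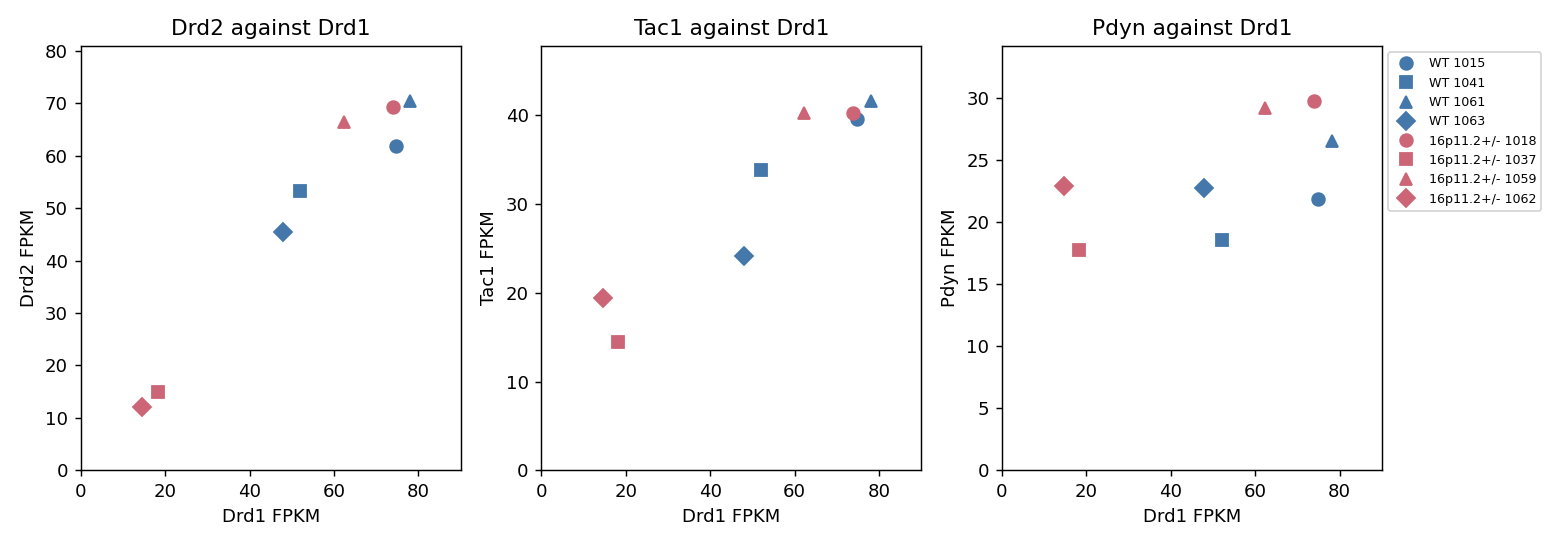
FPKM of Drd2, Tac1 and Pdyn (vertical axes) against FPKM of Drd1 (horizontal axes) in each WT mouse (blue) and each 16p11.2+/- mouse (red). Drd2 and Tac1 are lowest in mice DF-1037 and DF-1062, which also have the lowest Drd1, whereas the Pdyn level of mouse DF-1062, 23.0, lies among those of the WT mice.

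The sequence upstream of Drd1, Tac1 and Pdyn is shown because Drd1 and Tac1 were low in the same libraries while Pdyn was nearer to its WT level there. Transcription of Tac1 and Pdyn is known to respond to cAMP, which acts through the factor CREB on elements that contain the letters TGACG. Each sequence is from RefSeq (GRCm38.p6), is given 5′ to 3′ on the strand of the gene, and stops before the first base of any annotated transcript of that gene. Capitals mark TGACG or its reverse complement CGTCA, and the GC box GGGCGG or its reverse complement CCGCCC, and these motifs do not overlap here.
Drd1, chr13:54055706-54055908, reverse strand: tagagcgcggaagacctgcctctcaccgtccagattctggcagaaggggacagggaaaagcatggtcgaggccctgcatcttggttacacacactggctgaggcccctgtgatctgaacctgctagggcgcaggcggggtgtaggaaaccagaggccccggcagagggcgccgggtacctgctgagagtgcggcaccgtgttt
Tac1, chr6:7554811-7554878, forward strand: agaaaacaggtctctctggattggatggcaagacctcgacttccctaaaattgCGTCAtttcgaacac
Pdyn, chr2:129699939-129700188, reverse strand: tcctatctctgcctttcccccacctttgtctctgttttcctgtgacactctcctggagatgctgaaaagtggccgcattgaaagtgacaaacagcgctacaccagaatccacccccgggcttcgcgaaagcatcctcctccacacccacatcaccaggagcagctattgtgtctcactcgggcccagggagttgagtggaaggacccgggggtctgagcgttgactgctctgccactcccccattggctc
The 68 bases of Tac1 hold 1 TGACG motif and the other 2 sequences hold none of either motif. These stretches differ in length. A further search took the full 250 bases before each RefSeq start, which can differ from the GENCODE start given above. Some of these windows thus lie partly or wholly inside the annotated gene. Tac1 has 2 TGACG and 1 GGGCGG, in a window that begins at 7554811 and runs past its GENCODE start at 7554879. Pdyn has neither at its 2 starts. Drd1 has neither at the start shown and 1 GGGCGG at its other start. Among other members, Isl1 has 2 TGACG and no GGGCGG, and Slc35d3 has 1 of each. Chrm4 has no TGACG and 3 GGGCGG, in a window that begins at 91921939, away from its GENCODE start at 91927249. Ebf1 has neither at the starts searched. In windows of that length, 17.8% of 32851 RefSeq promoters hold TGACG on either strand and 32.7% hold GGGCGG. Matches of letters are a description of these windows and not of binding.

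Isl1 (ENSMUSG00000042258), on chromosome 13 from 116298281 to 116309689, encodes a LIM homeodomain factor of direct pathway neurons that is also expressed in cholinergic interneurons. Its FPKM was 3.31, 3.20, 3.84 and 4.55 in the WT mice and 4.67, 2.995, 3.96 and 6.74 in the 16p11.2+/- mice. The highest value was in mouse DF-1062, at 181% of the WT mean, where Drd1 was lowest, and mouse DF-1018 was also above every WT mouse. The log2 fold change was 0.27 (95% interval from -0.24 to 0.79, edgeR adjusted p = 0.859). It was 0.08 without mouse DF-1062 alone, 0.43 without mouse DF-1037 alone and 0.22 without both.

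Of the 5 cholinergic interneuron markers, all 5 were detected in every library, and their summed FPKM was 12.6 to 33.6 in WT mice. It was 26.2, 5.96, 28.2 and 33.6 in mice DF-1018, DF-1037, DF-1059 and DF-1062, with Slc5a7, the choline transporter, the most abundant. Chat, the enzyme that makes acetylcholine, had an FPKM of 0.914 in mouse DF-1037 and 5.02 in mouse DF-1062, against 3.26 to 7.81 in the WT mice. Gbx2, which thalamic neurons express too, was at 6.25 in mouse DF-1062 and at 0.0607 to 1.85 in the WT mice. Lhx8 was at 6.12 in mouse DF-1062 and 6.41 in mouse DF-1059, against at most 4.84 in the WT mice. In mouse DF-1062 the markers Slc5a7 and Slc18a3 were within the WT range. Chat, Gbx2 and Lhx8 were singled out after their values were seen. The cholinergic sum was 33.6 in both DF-1062 and WT-1061, with Gbx2 (6.25 and 0.280) included. Isl1 in these mice was 181% and 103% of the WT mean. The sum was 17.3 in WT-1063, which had the highest Isl1 of the WT mice. Mouse DF-1037 had the lowest value of both. The ratio of Isl1 to Chat, chosen after the values were seen, was 0.491 to 1.36 in WT mice and 0.905, 3.28, 0.721 and 1.34 in mice DF-1018, DF-1037, DF-1059 and DF-1062 (exact permutation test on the log2 ratio, p = 0.486). The part of cholinergic cells in the Isl1 level was not tested.

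Ebf1 (ENSMUSG00000057098), on chromosome 11 from 44617317 to 45008091, encodes a factor needed for the development of direct pathway neurons and is also expressed in mural cells of blood vessels. Its FPKM was 2.52, 1.88, 2.52 and 2.28 in the WT mice and 2.46, 1.03, 2.11 and 1.30 in the 16p11.2+/- mice. Mice DF-1037 and DF-1062 were below every WT mouse. Ebf1 had a log2 fold change of -0.43 (95% interval from -1.06 to 0.20, edgeR adjusted p = 0.859) and one of -0.00064 without these mice (95% interval from -0.37 to 0.37). All 6 endothelial and mural cell markers were detected in every library, and their summed FPKM was 79.8 in mouse DF-1037 and 54.6 in mouse DF-1062, against 56.7 to 71.8 in the WT mice. Rgs5, the most abundant of them, was at an FPKM of 43.7 and 32.1 in these 2 libraries.

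Eya1 (ENSMUSG00000025932), a transcriptional coactivator and phosphatase on chromosome 1 from 14168954 to 14310235, was the lowest of the genes. Its FPKM was 1.94, 1.80, 1.73 and 1.13 in the WT mice and 1.46, 1.27, 1.73 and 0.822 in the 16p11.2+/- mice, on 106 to 229 counts per library. Here only mouse DF-1062 lay below every WT mouse. Eya1 had a log2 fold change of -0.33 (95% interval from -0.93 to 0.26, edgeR adjusted p = 0.859), and -0.04 without mice DF-1037 and DF-1062. No exon base of any of the 8 genes is shared with another gene.

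**Figure D4:**
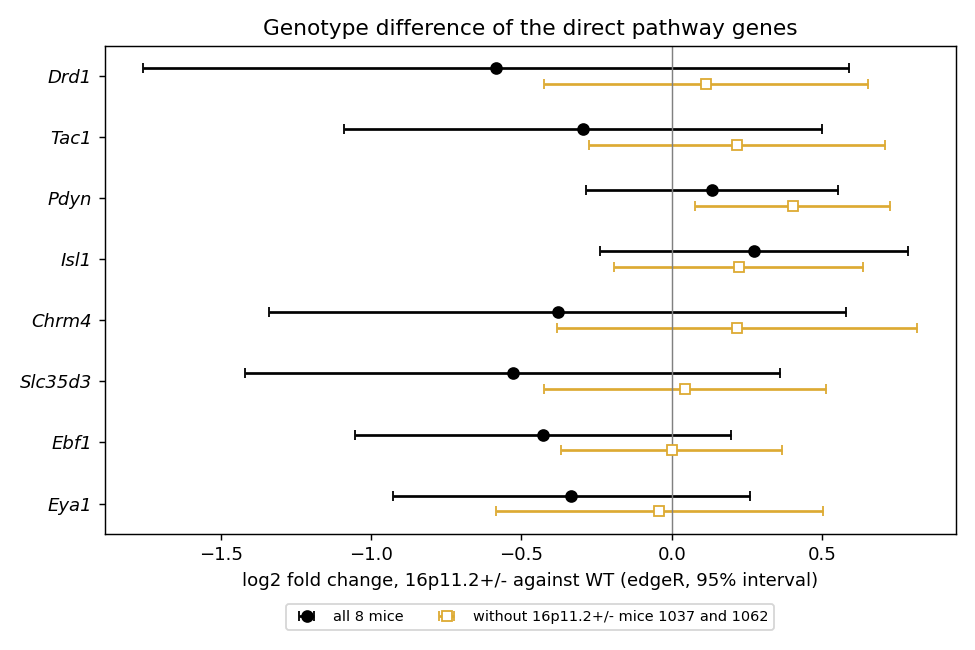
Log2 fold change of each direct pathway gene between 16p11.2+/- and WT mice (horizontal axis; negative is lower in 16p11.2+/-) with its 95% interval from edgeR, for all 8 mice (black) and without mice DF-1037 and DF-1062 (open squares). With all mice every interval includes 0. Without the 2 mice, left out after their low values were seen, the interval of Pdyn alone, from 0.08 to 0.72, does not. The edgeR p of Pdyn in that fit, adjusted over all genes, was 0.995, and no WT mouse was left out.

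Per length, the genes spanned a wide range of levels. In FPKM averaged over the WT mice the order was Drd1 at 63.2, Tac1 at 34.8, Chrm4 at 23.7, Pdyn at 22.4, Slc35d3 at 10.5, Isl1 at 3.72, Ebf1 at 2.30 and Eya1 at 1.65. Drd1 lay at the 96.6th percentile of the mean FPKM of the genes tested and Eya1 at the 28.0th. The order of Pdyn and Chrm4 was not the same in the groups, with Pdyn higher in 1 of 4 WT mice and in 4 of 4 16p11.2+/- mice, a difference that was not tested. Tac1 exceeded Pdyn in 6 of 8 libraries, all except DF-1037 and DF-1062, and Drd1 exceeded Tac1 in 7 of 8. Chrm4 was above Slc35d3, and Isl1 above Ebf1, in all 8. Within the WT group the SD was 13.2% of the mean for Ebf1 and 28.4% for Chrm4, the lowest and highest of the 8 genes. Within the 16p11.2+/- group it ranged from 22.8% for Pdyn to 71.5% for Drd1.

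Of the 5 indirect pathway genes tested, 4 were lower in mice DF-1037 and DF-1062 than in every WT mouse. For the other, Sp9, a factor of indirect pathway neurons, mouse DF-1062 was within the WT range, with an FPKM of 1.84 against 1.77 in mouse WT-1063, and mouse DF-1037 was below it, at 1.12. Drd2, the D2 dopamine receptor, had an FPKM of 61.8, 53.3, 70.4 and 45.5 in the WT mice and 69.4, 14.9, 66.4 and 11.98 in the 16p11.2+/- mice. Penk, the enkephalin precursor, was at 111 and 115 in mice DF-1037 and DF-1062, against 266 to 456 in the other 6 mice. All 5 had a log2 fold change below 0, against 51.8% of all genes, the median was -0.47, and 0 passed the test. The sixth listed gene, Gpr52, was not analysed here. For the 8 shared medium spiny neuron genes the median was -0.53, all 8 were negative, against the same share of all genes, and 0 passed. Without mice DF-1037 and DF-1062 the medians were 0.24 and 0.15.

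The balance between the pathways was then compared within each library. The ratio of Drd1 to Drd2 was 1.21, 0.976, 1.11 and 1.05 in the WT mice and 1.06, 1.22, 0.938 and 1.22 in the 16p11.2+/- mice. Mice DF-1037 and DF-1062, whose Drd1 was 26.0% of the WT mean on average, had the highest values of the 8, 1.22 in each, just above the WT maximum of 1.21. Its mean was 1.09 ± 0.0983 (SD, n = 4) for WT and 1.11 ± 0.137 (SD, n = 4) for 16p11.2+/-, a difference of 0.03 in the log2 ratio that was within the spread (exact permutation test, p = 0.857). The ratio of Tac1 to Penk was between 0.0910 and 0.121 in WT mice and between 0.0883 and 0.169 in 16p11.2+/- mice, highest in mouse DF-1062. The difference of 0.22 in the mean log2 ratio was within the spread (exact permutation test, p = 0.429), and both ratios had an adjusted p of 0.857. The ratio of Pdyn to Penk, chosen after the values were seen, was 0.0585 to 0.0857 in WT mice and 0.0653, 0.160, 0.0741 and 0.199 in mice DF-1018, DF-1037, DF-1059 and DF-1062. It was thus above every WT mouse in DF-1037 and DF-1062 and within the WT range in the other 2, and the log2 difference of 0.74 had an exact permutation p of 0.200. Drd1 relative to Ppp1r1b, a ratio chosen after the values were seen, was between 0.217 and 0.251 in WT mice and between 0.200 and 0.308 in 16p11.2+/- mice. With a score of the shared genes (their mean log2 CPM, where CPM is the count relative to the library total after scaling by TMM factors) as a covariate, also added after the data were seen, the log2 fold change of Drd1 was -0.06 with a 95% interval from -0.24 to 0.11. In the same fit that of Tac1 was 0.12 (-0.26 to 0.49), and Pdyn had 0.33 (0.02 to 0.65), with an edgeR p of 0.0409 unadjusted and 1 adjusted.

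Downstream of the D1 receptor, 12 genes of its signalling chain were tested and 0 passed. The log2 fold change was below 0 for 11 of them, against 51.8% of all genes, with a median of -0.26. Ppp1r1b, 1 of the 12, is also in the list of shared medium spiny neuron genes. Gnal, the stimulatory G protein subunit, had a log2 fold change of -0.21 (95% interval from -0.81 to 0.39). Adcy5, the main striatal adenylyl cyclase, had -0.34 (-1.31 to 0.64), and Pde10a, a phosphodiesterase that removes cAMP and cGMP, had -0.59 (-1.89 to 0.71). Prkaca, a catalytic subunit of protein kinase A with broad expression, was the exception in sign, at 0.23 (-0.06 to 0.52). In mice DF-1037 and DF-1062 Pde10a had an FPKM of 26.3 and 18.4 against 77.1 to 122 in the other mice, whereas Prkaca had 61.6 and 81.7 against 46.9 to 59.8. Without these mice 1 of the 12 had a negative value and the median was 0.15.

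Among the other dopamine and muscarinic receptors, 7 of 8 were tested and 0 passed. Drd4 was not tested, with an FPKM of at most 0.0776 in any library and no count in mouse WT-1041. The median log2 fold change of the others was 0.12. Drd3 was at 0.381 and 2.33 in mice DF-1037 and DF-1062, on 10 and 66 counts, opposite ends of the range over the 8 mice. Mouse WT-1015 was almost as low, at 0.386 on 10 counts. On this gene of few counts the pair of libraries did not move together. Chrm2, the M2 receptor, had a log2 fold change of 0.50 (95% interval from -0.11 to 1.12) and Chrm1 one of -0.30 (-1.14 to 0.53).

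Of 9 genes that process these peptides or receive them, 9 were tested, 0 passed, and the median log2 fold change was 0.04. Pcsk2, a convertase that cuts prodynorphin, had -0.19 (95% interval from -0.47 to 0.08), and Cpe, the carboxypeptidase that trims the products, 0.02 (-0.28 to 0.33). Tacr1, the receptor of substance P, had 0.04 (-0.93 to 1.01), and Oprk1, the kappa opioid receptor of dynorphin, had 0.34 (-0.13 to 0.81). The FPKM of Oprk1 was 5.65 and 4.15 in mice DF-1037 and DF-1062, within 3.10 to 5.84 for the other mice.

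A further 4 genes of direct pathway neurons gave a median log2 fold change of -0.07, with 0 passing. Reln, a secreted matrix protein, had an FPKM of 1.53 and 2.70 in mice DF-1037 and DF-1062 against 3.02 to 5.70 in the others. Tshz1, a zinc finger factor, was between 7.82 and 9.52 in all 8 libraries, and its log2 fold change was 0.04 (95% interval from -0.18 to 0.27). Zfp521 was highest in mouse DF-1062, at 5.78, as was Isl1.

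Among all 18293 other genes tested, those whose log2 CPM was most like that of Drd1 over the 8 mice included Kcnab1, Syndig1l, Rgs9 and Gpr6, all among the first 5. Their Pearson r with Drd1 was between 0.997 and 0.999, given as a description of the best among many genes, and mice DF-1037 and DF-1062 set most of the range. Over the other 6 mice r was between 0.959 and 0.992 for these genes. Rgs9 was in the shared list and Gpr6 in the indirect pathway list. Of the direct pathway genes, Slc35d3 was nearest to Drd1, with an r of 0.990, while that of Pdyn was 0.602 and that of Isl1 -0.28.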

How the data were processed

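RNA was read from 8 striata, and raw counts and FPKM per gene and mouse were deposited by the authors, who trimmed the reads, aligned them with Hisat2 and counted them with Htseq-count. Strand setting and annotation were not given in the sources used here. The submitters' processing notes list Bowtie 0.12.2 and the builds mm8 and mm9, whereas the gene lengths implied by the deposited FPKM equalled the GENCODE M21 (GRCm38) exon lengths for all 8 genes. A table with the authors' own comparison and a summary of FPKM bins were left out. Rows without an Ensembl identifier, which held 0.509% of counts, were kept.

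The main test was edgeR 4.0.16 under R 4.3.3 on the counts, with TMM factors, a quasi-likelihood fit and Benjamini-Hochberg adjustment over the 18294 genes that passed filterByExpr (minimum count 10, minimum total 15), at a threshold of 0.05. Single FPKM values and ratios were compared by exact permutation of the 8 mice, two-sided, with 70 assignments. The fits were first run on simulated counts in which 200 genes had known fold changes. Libraries of the same genotype differed by 8.88 to 62.9 times what sampling gives (chi-square divided by its degrees of freedom), and each entered as 1 replicate. Log2 CPM used a prior count of 2. As alternatives, DESeq2 1.42.0, limma 3.58.1 (voom on counts, trend on log2 FPKM plus 1 or 0.1), RLE scaling, unscaled totals, a looser and a stricter filter, marker scores as covariates and the omission of each mouse were tried. The members and lists were chosen with earlier results of these data known. Genes named were the 8 members, any gene of the striatal lists, the most abundant gene and markers at 0 of the other lists, and the 5 genes most like Drd1, of which 1 is not reported here. Others are marked as chosen after their values were seen.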

Additional observations from a re-analysis of the deposited data

Results flagged for a closer look

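Of 28 sets of 4 values, 1 held a mouse whose gap to its nearest neighbour was a larger share of the range than Dixon's 95% limit allows, and chance gives about 1 in 20. The ratio of Drd1 to Ppp1r1b was 0.251 in mouse WT-1015 against 0.217 to 0.219 in the other WT mice, and the gap was 0.954 of the range.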

How the results depend on the processing

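The count of direct pathway genes past the threshold was 0 in all 20 alternatives, those with each mouse left out (0 to 0) included. At an unadjusted p under 0.05 it was 1 without mouse DF-1018, with the shared medium spiny neuron score and without mice DF-1037 and DF-1062, and 0 in the others. DESeq2 called 29 genes of the whole table. With edgeR that number, 20 with all mice, was 13 with the thalamic marker score as covariate, 11 without both mice DF-1037 and DF-1062, and from 8 to 18 with each mouse left out. With the thalamic score the log2 fold change of Tac1 was 0.023, with the shared medium spiny neuron score that of Tac1 was 0.12 and that of Chrm4 0.11, and without mice DF-1037 and DF-1062 the values were 0.11 for Drd1, 0.22 for Tac1, 0.22 for Chrm4 and 0.043 for Slc35d3, each opposite in sign to the value over all mice and none past the threshold. With each mouse left out, the log2 fold change kept its sign for all 8 genes, from -1.02 to -0.28 for Drd1, -0.52 to -0.07 for Tac1, 0.03 to 0.27 for Pdyn and 0.08 to 0.43 for Isl1. With limma-trend on log2 FPKM, Drd1 was at -0.86 with a pseudocount of 1 and -0.89 with 0.1, and Eya1 at -0.20 with 1. The difference in the log2 ratio of Drd1 to Drd2, 0.03 with all mice, ranged from -0.022 to 0.11 with each mouse left out, being -0.022 without mouse WT-1041, -0.0206 without mouse DF-1037 and -0.0197 without mouse DF-1062. For Tac1 to Penk, 0.22 with all mice, it ranged from 0.05 without mouse DF-1062 to 0.36 without mouse DF-1018. The causes were not tested. No paired analysis was possible because the labels give no litter or batch by which mice of the genotypes could be paired. With 4 mice a group the 95% interval of Drd1 spans -1.76 to 0.59.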

Other observations

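Of 6 activity-induced genes, which neurons transcribe soon after stimulation, 5 had a log2 fold change below 0, against 51.8% of all genes, and the median was -0.56. In this list 3 had an unadjusted edgeR p under 0.05 (Fosb, Junb and Nr4a1), against 4.32% of all genes, and 0 passed after adjustment. Fos went the other way, with a log2 fold change of 0.33 (95% interval from -0.46 to 1.11). Its FPKM was 185% and 181% of the WT mean in mice DF-1037 and DF-1062, and 64.8% and 81.0% in mice DF-1018 and DF-1059. Fosb, Junb, Nr4a1 and Fos were singled out after their values were seen. Nr4a1, an orphan nuclear receptor, had an FPKM of 19.9, 14.99, 16.5 and 13.1 in mice WT-1015, WT-1041, WT-1061 and WT-1063 and 10.5, 12.6, 9.43 and 6.66 in mice DF-1018, DF-1037, DF-1059 and DF-1062, and all 4 were below every WT mouse. The nearest values of the groups were 12.65 in mouse DF-1037 and 13.05 in mouse WT-1063. Among all genes tested, the FPKM ranges of the groups did not overlap, in either direction, for 2.83%. For Nr4a1 the log2 fold change was -0.73 (95% interval from -1.22 to -0.24, edgeR adjusted p = 0.859). Without mice DF-1037 and DF-1062 all 6 genes were negative, with a median of -0.48.

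The summed FPKM of 6 astrocyte markers, led by Aldoc, was 301 to 337 in WT mice and 293 to 389 in 16p11.2+/- mice, and that of 6 microglia markers, led by C1qa, was 59.7 to 84.8 and 50.6 to 81.2, with 0 of these 12 genes at an unadjusted p under 0.05. Of 7 oligodendrocyte markers, all 7 had a log2 fold change below 0, where 51.8% of all genes did. In the edgeR test 5 of them were under 0.05 before adjustment, where 4.32% of all genes were, and 0 after it.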
